A study of Mus musculus with 16 samples.

Results

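The genes described here are the nuclear-encoded subunits of the oxidative phosphorylation system, taken as all genes whose symbol names a subunit of complex I (Nduf), complex II (Sdh), complex III (Uqcr and Cyc1), cytochrome c (Cycs), complex IV (Cox4 to Cox8) or complex V (Atp5). The rule found 81 members among 17951 listed genes, namely 37 of complex I, 4 of complex II, 9 of complex III, 1 cytochrome c, 13 of complex IV and 17 of complex V. By the annotation 80 are protein-coding and 1, Ndufa11b, is a processed pseudogene. Uqcrc1 was treated apart because its level jumped in single libraries. The rule reads symbols, and 5032 listed genes had none. Of these, 6 carry a reference symbol that would have met it, and all 6 are processed pseudogenes too.

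RNA was sequenced from microglia sorted from mouse brain on CD11b, CD45 and CX3CR1 after the mice had received Methoxy-X04 (Me-X04), a dye that binds beta-amyloid. The 5xFAD line carries transgenes with familial Alzheimer's disease mutations, driven by the Thy1 promoter, which is active in neurons and not meant for expression in microglia. There were 7 libraries of WT microglia, all Me-X04-, 5 of TG microglia without dye (TG Me-X04-) and 4 of TG microglia that had taken up dye (TG Me-X04+). By the labels WT mice were 2 months old and TG mice 6 months old. The methods of the study state different ages. Genotype and age therefore cannot be told apart in either comparison with WT, while TG Me-X04- and TG Me-X04+ of the same number came from the same animal.

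Oxidative phosphorylation moves electrons from NADH through complex I, or from succinate through complex II, to ubiquinone, then through complex III and cytochrome c to complex IV, where oxygen is reduced. The proton gradient that complexes I, III and IV build drives ATP synthesis by complex V. Complex II is encoded wholly in the nucleus, while the other complexes also hold subunits read from the mitochondrial genome, so both genomes have to supply their parts.

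Each library held between 15623664 and 27579017 reads on listed genes, recovered as whole reads from the deposited log2 RPKM values. RPKM is a read count scaled for gene length and library size. The library size behind the deposited values was 0.93 to 1.27 times these reads in WT. It was 0.79 to 1.43 times in TG Me-X04- and 0.54 to 0.98 times in TG Me-X04+. Listed genes with 0 reads numbered 55 to 1381 in WT, 83 to 703 in TG Me-X04- and 450 to 1831 in TG Me-X04+. More reads thus did not mean fewer genes at 0. The 80 members other than Uqcrc1 took 0.123% to 0.163% of reads in WT, 0.129% to 0.213% in TG Me-X04- and 0.127% to 0.243% in TG Me-X04+. Reads of the mitochondrial genome took 12.6% to 31.3%, 20.6% to 44.8% and 31.3% to 56.8%. After subtraction of each group's mean, a principal component with 37.8% of the variance split the libraries into 2 sets. Set A held 7 libraries (WT 1 to 3 and numbers 1 and 2 of both TG groups) and set B the other 9. The study used 2 sequencing platforms, and which library ran on which is not given in the sources used here, so its part in the split was not tested. Differences within set A and within set B are given for the members named with their libraries for this reason. All 10 microglia markers were measured, with a summed level of 4685 to 7062 RPKM in WT, 4080 to 8065 in TG Me-X04- and 5222 to 8169 in TG Me-X04+. Single markers moved both ways by the test described below. In TG Me-X04+ 1 passed higher and 1 lower against TG Me-X04-, and 1 higher and 2 lower against WT. The 8 markers of plaque-associated microglia summed to 13.3 to 35.1, 90.6 to 188 and 1087 to 2080 RPKM.

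Markers of other cell types were low but not absent. Neuronal markers (3 of 6 measured) summed to 0.461 to 1.91 RPKM in WT, 0.507 to 1.01 in TG Me-X04- and 0.106 to 0.489 in TG Me-X04+. Astrocyte markers (4 of 6) summed to 15.1 to 29.4, 13.2 to 25.5 and 9.70 to 19.3 RPKM, and oligodendrocyte markers (4 of 6) to 7.03 to 16.7, 13.3 to 15.5 and 10.7 to 14.0. Endothelial markers (4 of 6) summed to 2.55 to 13.8, 2.00 to 3.02 and 1.32 to 8.49 RPKM, and the monocyte marker Ccr2 (1 of 3) stood at 2.08 to 4.00, 1.38 to 2.61 and 0.749 to 1.23. The endothelial sum hides opposite changes, with log2 fold changes of -4.83 to 5.87 in TG Me-X04+ against WT. There 1 of these markers passed higher and 1 lower. Markers of perivascular macrophages (4 of 4) summed to 2.14 to 4.84, 1.43 to 5.76 and 2.42 to 18.6 RPKM, and those of neutrophils (2 of 4) to 0.321 to 11.8, 0.321 to 19.6 and 0.321 to 7.49. No measured marker of these lists stayed at 3 reads or fewer in all libraries, and the 4 T cell markers were not analysed here. The part of these cells in the results on the members was not tested. In sorted bulk RNA, fewer cells of a type and less RNA per cell cannot be told apart.

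Levels of the members in WT microglia spanned a wide range on the log2 RPKM scale. The scale divides reads by the gene length listed with the data, so genes compare only as far as that length fits their transcripts. The length was 2661 bases for Ndufa11 and 419 for Ndufa1, for example. How well it fits was not tested, so the order below is that of the listed values. Outside Uqcrc1, the highest WT means were those of the catalytic head of complex V, Atp5b at 5.31 and Atp5a1 at 5.15, with Atp5c1 at 4.81. Sdha, the flavoprotein of complex II, followed at 4.77, then Cox6a1 at 4.68, Ndufa4 at 4.59 and Cox8a at 4.40. With SDs between libraries of 0.34 to 0.89 these neighbours in the order were closer together than their spread. At the low end stood the tissue isoforms Cox6b2 at -2.47 and Cox6a2 at -0.82, the processed pseudogene Ndufa11b at -0.49 (0 to 12 reads in WT), then Ndufa11 at 0.06, Atp5g1 at 0.39 and Cycs at 0.48.

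The sequence just upstream of a gene is where factors that coordinate these subunits are known to bind, among them NRF1, ETS family factors and YY1. RefSeq promoter windows of 300 bases, from 250 before to 50 after the start site (GRCm38.p6), matched 64 of the 81 members. Cox6a2 and Atp5mpl, both called higher in TG Me-X04+, were without a window. For each member the window nearest the annotated gene start was kept. Its start site lay up to 3643 bases away (Atp5d). The distance was 1305 bases for Atp5g2 and 521 for Atp5j2, counted below as holding the NRF1 and the YY1 core. The comparison below took every window, so there a gene can hold several. Searched on both strands, the NRF1 core GCGCATGC was present in 11 of these 64 windows (17.2%) against 2.71% of all 32851 windows, the ETS core CCGGAAG in 15 (23.4%) against 8.86%, and the YY1 core AAGATGGCG in 6 (9.38%) against 1.40%. At least 1 of the 3 was in 27 member windows (42.2%) and in 12.1% of all windows. The NRF1 core read on both strands can overlap itself at a single place, as it does in Cox6a1. The windows below are those of Uqcrh and Cox8a, which were called higher in TG Me-X04+ (Cox8a against WT alone) and hold the ETS core, of Cox6a1, the ubiquitous counterpart of the isoform with the largest change, and of Ndufa1 and Cox7b, which were called higher and hold none of the 3 cores. Capitals mark the cores, read along the strand of the gene.
Uqcrh, chr4:116075021-116075320, minus strand: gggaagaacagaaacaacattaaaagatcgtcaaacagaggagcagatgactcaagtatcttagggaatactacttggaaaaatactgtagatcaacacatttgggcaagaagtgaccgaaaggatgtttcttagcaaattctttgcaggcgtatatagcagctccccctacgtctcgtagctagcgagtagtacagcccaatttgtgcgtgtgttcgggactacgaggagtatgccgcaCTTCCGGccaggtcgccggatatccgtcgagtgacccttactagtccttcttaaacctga
Cox8a, chr19:7217567-7217866, minus strand: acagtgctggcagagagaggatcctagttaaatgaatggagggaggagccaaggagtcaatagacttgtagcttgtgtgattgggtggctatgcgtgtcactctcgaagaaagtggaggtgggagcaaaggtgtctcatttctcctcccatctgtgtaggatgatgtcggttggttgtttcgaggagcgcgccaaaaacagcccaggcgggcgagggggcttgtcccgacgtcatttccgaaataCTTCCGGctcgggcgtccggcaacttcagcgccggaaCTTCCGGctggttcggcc
Cox6a1, chr5:115348909-115349208, minus strand: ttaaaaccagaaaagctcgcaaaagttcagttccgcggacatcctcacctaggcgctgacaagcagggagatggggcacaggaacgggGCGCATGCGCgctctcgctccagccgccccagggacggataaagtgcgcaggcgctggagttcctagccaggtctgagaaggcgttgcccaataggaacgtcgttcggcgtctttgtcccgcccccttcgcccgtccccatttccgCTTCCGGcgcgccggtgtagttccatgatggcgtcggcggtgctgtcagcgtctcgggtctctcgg
Ndufa1, chrX:37191189-37191488, minus strand: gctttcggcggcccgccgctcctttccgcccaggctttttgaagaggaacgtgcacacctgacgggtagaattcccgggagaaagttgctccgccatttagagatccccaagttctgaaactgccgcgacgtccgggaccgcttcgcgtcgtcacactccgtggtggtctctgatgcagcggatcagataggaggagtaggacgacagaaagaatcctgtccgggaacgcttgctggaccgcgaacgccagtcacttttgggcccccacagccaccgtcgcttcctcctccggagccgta
Cox7b, chrX:106015450-106015749, plus strand: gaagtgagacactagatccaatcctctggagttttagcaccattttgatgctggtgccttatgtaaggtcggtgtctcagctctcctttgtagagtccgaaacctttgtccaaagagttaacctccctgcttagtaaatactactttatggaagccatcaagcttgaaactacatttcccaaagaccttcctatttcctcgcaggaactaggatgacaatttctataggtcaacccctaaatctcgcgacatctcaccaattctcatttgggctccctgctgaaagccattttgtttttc
In the Uqcrh, Cox8a and Cox6a1 windows every ETS core lies on the opposite strand to the gene. The windows of Ndufa12 and Cox7a2l hold none of the 3 cores either, which says only that these letters are not in these windows. In the annotation used for the other coordinates they lie 315 (Ndufa12) and 2997 (Cox7a2l) bases from the start of the gene.

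The comparison of TG Me-X04+ with TG Me-X04- asks how microglia that had taken up amyloid differ from those in transgenic brains that had not. Of the 81 members, 7 were called higher and 0 lower by limma on log2 RPKM with all 16 libraries (adjusted p under 0.05 over all genes and an absolute log2FC of at least 0.7). These were the complex I subunits Ndufa1 and Ndufa12, the complex III subunit Uqcrh, the complex IV genes Cox6a2, Cox7b and Cox7a2l, and the complex V subunit Atp5mpl. Over all listed genes 5.49% were called, 3.44% higher and 2.06% lower, so 8.64% of the members against 3.44% of genes rose. An unadjusted p under 0.05 was reached by 19.8% of members and 18.7% of all genes, a share near the background. The log2FC was positive for 65 of 81 members (80.2%) and for 44.4% of all genes, with medians of 0.53 and -0.09, although these signs depend on the scaling described next. Members whose TG Me-X04+ libraries all lay above every TG Me-X04- library numbered 9 (11.1%, background 4.80%), the 7 called and Cox7c and Atp5g1.

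The size of this shift depends on what the libraries are scaled to. Taking the reads outside the mitochondrial genome as library size moved the median of all genes to -0.36 and that of members to 0.26, with 55 of 81 positive and 4 called higher, 0 lower. Those 4 are 4.94% of members, where 5.50% of all genes were called, 308 of 17951 higher and 680 lower. Taking all listed reads, an alternative chosen after the data had been seen, moved the 2 medians to -0.68 and -0.07, with 29 of 81 positive, 2 called higher (Cox6a2 and Ndufa1) and 1 lower (Atp5s). These 3 are 3.70% of members, where 10.45% of all genes were called, 181 of 17951 higher and 1695 lower. Among all genes called, 62.6% were higher as deposited, 50.8% after quantile normalization, 31.2% with reads outside the mitochondrial genome and 9.65% with all listed reads. By complex, the median with all listed reads was -0.12 for complex I, -0.20 for complex II, -0.02 for complex III without Uqcrc1, 0.04 for complex IV and -0.03 for complex V. The sign of the members as a group was thus not the same on each scale. Relative to the median of all genes, the median of the members was higher in every alternative that was run, by 0.44 to 0.68. The share of mitochondrial genome reads moved with this comparison, and its part in the result was not tested.

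**Figure D1:**
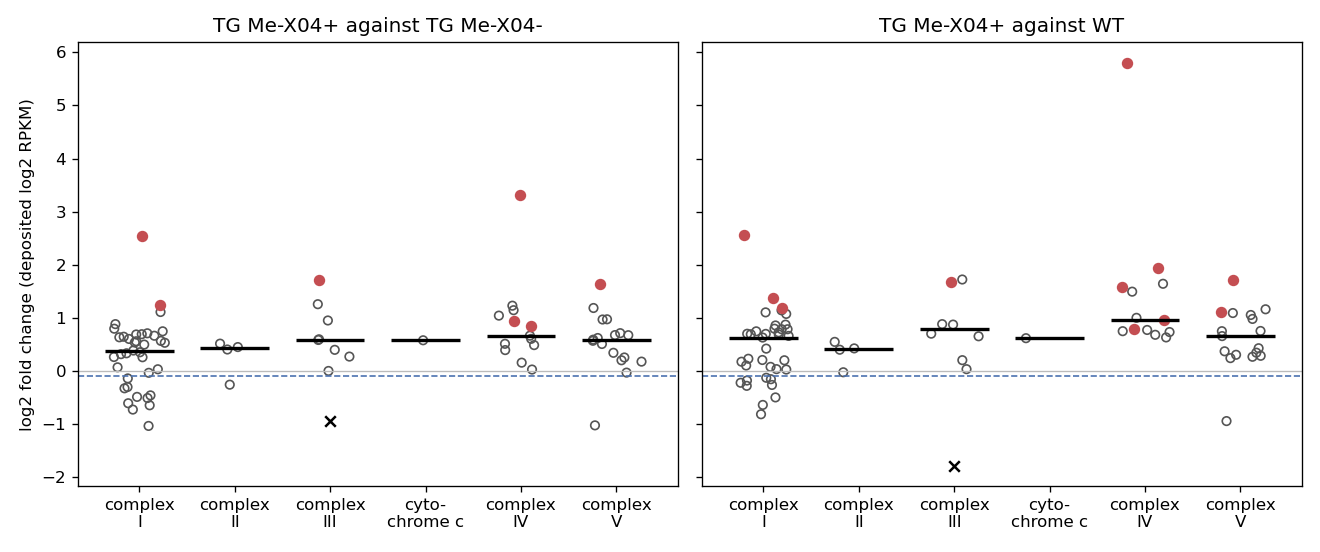
log2 fold change of each member by complex, for TG Me-X04+ against TG Me-X04- (left) and against WT (right). Filled red points are called members, open points are the rest, crosses mark Uqcrc1, black bars are the medians of the members other than Uqcrc1 and the dashed line is the median of all genes. On the left 7 members are called, all above 0, and the median of complex IV (0.66) lies highest.

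Complex I takes electrons from NADH. Of its 37 members, 26 had a positive log2FC, with a median of 0.38 (12 positive with library sizes of all listed reads), and 2 were called. The 7 nuclear core subunits, which include those with the redox centres, had a median of 0.06, 5 of them positive and 0 called, while the 28 accessory subunits had a median of 0.51, 19 of them positive and 2 called. Whether the 2 classes differ was not tested.

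Ndufa1 (ENSMUSG00000016427, chrX:37187588-37191163, minus strand, GRCm38), a small accessory subunit of the membrane arm needed for assembly of the complex, had the largest change of complex I. Its log2 RPKM in WT ran from 1.80 through a median of 3.30 to 3.90. In TG Me-X04- it was 3.53, 4.07, 3.14, 2.79 and 2.69, and in TG Me-X04+ 6.82, 5.46, 5.67 and 5.16. All 4 TG Me-X04+ libraries stood above the other 12, which overlapped. The log2FC was 2.53 (5.79-fold; SE 0.43, 95% interval 1.63 to 3.44, adjusted p = 0.00229), while the sets taken alone gave 2.34 (A) and 2.54 (B). It was called in each of the 24 alternatives, with the log2FC between 1.92 and 2.74.

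Ndufa12 (ENSMUSG00000020022, chr10:94198720-94221443, plus strand), an accessory subunit of the peripheral arm, ran in WT from 1.32 through 1.55 to 1.97. The TG Me-X04- libraries stood at 1.85, 2.10, 2.54, 1.42 and 0.95 and the TG Me-X04+ libraries at 3.54, 3.05, 2.88 and 2.58. TG Me-X04+ lay above all others, by a narrow gap to TG Me-X04- 3. The log2FC was 1.24 (SE 0.30, adjusted p = 0.0227), and 1.32 and 1.10 within sets A and B. The call was lost without TG Me-X04- 4 or 5 or TG Me-X04+ 1 or 2. Over the 24 alternatives it was called in 15, with a log2FC of 0.63 to 1.43 and an adjusted p of up to 0.165. The transcripts of a further gene, Gm15920, hold 32.4% of the 16-base words of Ndufa12, so reads of the pair may be split.

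Ndufa4 had the highest mean level of the genes named for complex I. Its product is found in complex IV. WT ran from 3.86 through 4.22 to 5.43, TG Me-X04- stood at 4.92, 5.92, 4.84, 4.16 and 4.09, and TG Me-X04+ at 6.43, 6.20, 5.73 and 4.29. The groups overlapped, and the log2FC of 0.88 (SE 0.47, adjusted p = 0.334; 0.90 in set A, 0.65 in set B) did not pass the test. Ndufs6, an accessory subunit of the peripheral arm, had the smallest log2FC at -1.04 (SE 0.87, adjusted p = 0.579), or -2.61 in set A and 0.44 in set B. Its levels in WT were 0.84, 2.83 and 4.25 as lowest, median and highest. They were 3.03, 3.45, 3.61, 2.81 and 2.01 in TG Me-X04-, and -1.88, 3.13, 3.71 and 2.80 in TG Me-X04+. TG Me-X04+ 1, with 1 read, stood alone at the bottom, and without it the log2FC was 0.23.

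Complex II oxidises succinate and links the chain to the TCA cycle. None of its 4 members was called, although 3 of 4 had a positive log2FC, with a median of 0.42 (0 positive with all listed reads). None of the 4 reached an unadjusted p under 0.05 by limma either. Sdha, the flavoprotein, had the highest level and ran in WT from 4.26 through 4.45 to 5.51. It stood at 5.30, 5.29, 4.54, 4.29 and 4.20 in TG Me-X04- and at 5.34, 5.80, 4.99 and 4.54 in TG Me-X04+. The groups overlapped and set A lay above set B in each of them. The log2FC was 0.45 (95% interval -0.27 to 1.16, adjusted p = 0.532), or 0.27 in set A and 0.43 in set B.

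Of the membrane anchors, Sdhc had the largest log2FC and Sdhd the smallest. Sdhc ran in WT from 2.10 through 2.59 to 3.38, stood at 2.61, 3.25, 2.62, 2.78 and 2.36 in TG Me-X04- and at 3.11, 3.57, 3.39 and 2.86 in TG Me-X04+. Its log2FC was 0.51 (95% interval -0.04 to 1.06, adjusted p = 0.315), or 0.41 in set A and 0.54 in set B. Sdhd ran from 2.71 through 3.67 to 4.22, stood at 3.73, 3.50, 4.05, 4.29 and 3.70 in TG Me-X04- and at 1.70, 3.22, 4.50 and 4.94 in TG Me-X04+. Its log2FC was -0.26 (95% interval -1.33 to 0.80, adjusted p = 0.832). The 2 TG Me-X04+ libraries of set A held the lowest Sdhd levels of that group and those of set B the highest of all libraries, with differences of -1.16 within set A and 0.71 within set B.

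Complex III passes electrons from ubiquinol to cytochrome c. Without Uqcrc1, 7 of 8 members had a positive log2FC, with a median of 0.59 (3 positive with all listed reads), and 1 was called. Uqcrh (ENSMUSG00000063882, chr4:116066965-116075071, minus strand), the hinge subunit that helps cytochrome c dock, had both the highest mean level outside Uqcrc1 and the largest change. WT ran from 2.73 through 3.58 to 4.30. TG Me-X04- stood at 3.32, 3.52, 4.31, 3.67 and 2.84, and TG Me-X04+ at 5.00, 5.53, 5.34 and 5.07. The 4 TG Me-X04+ libraries were close together and above all 12 others. The log2FC was 1.70 (3.26-fold; SE 0.29, 95% interval 1.08 to 2.32, adjusted p = 0.00248), with 1.85 within set A and 1.60 within set B. It was called in 23 of 24 alternatives, the exception being library sizes of all listed reads, where the log2FC was 1.08 and the adjusted p 0.0504.

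The small subunit Uqcr10 had a log2FC of 1.25 (SE 0.62, adjusted p = 0.298), or 1.55 in set A and 1.32 in set B, and its levels lay apart by set, 1.53 lower in set A than in set B within WT. Cyc1, the cytochrome c1 that hands electrons on, had the smallest log2FC outside Uqcrc1, -0.01 (95% interval -1.11 to 1.10, adjusted p = 0.998). Its levels ran in WT from 1.76 through 3.59 to 3.93, stood at 2.38, 3.53, 3.90, 3.77 and 3.24 in TG Me-X04- and at 1.96, 2.53, 4.53 and 4.41 in TG Me-X04+. As with Sdhd, the TG Me-X04+ libraries of set A were low and those of set B high, and the within-set differences were -0.71 (A) and 0.84 (B). Cycs, the mobile carrier itself, ran in WT from -0.20 through 0.34 to 1.29, stood at 0.47, 1.39, 0.34, -0.03 and 0.45 in TG Me-X04- and at 0.99, 2.30, 0.96 and 0.14 in TG Me-X04+. The groups overlapped, and the log2FC was 0.57 (SE 0.44, adjusted p = 0.541), or 0.72 in set A and 0.29 in set B.

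**Figure D2:**
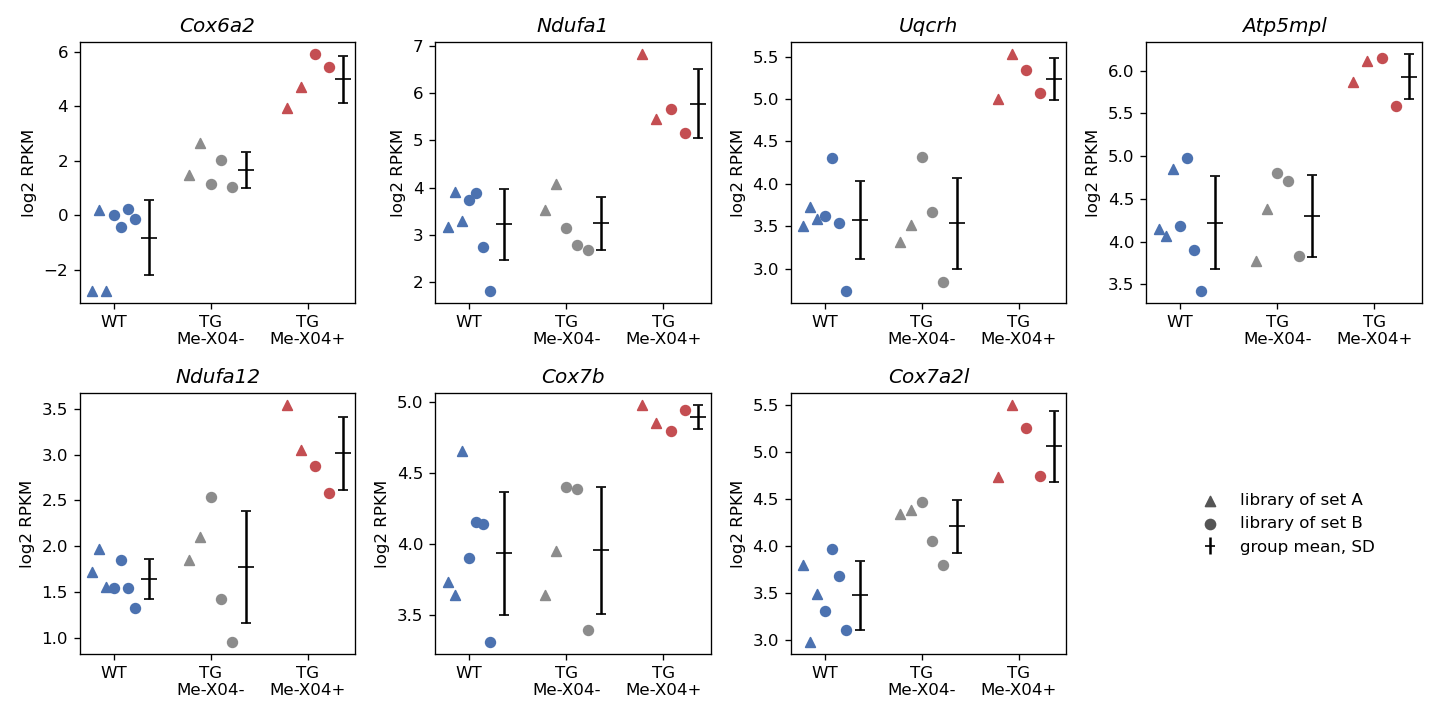
log2 RPKM of the 7 members called in TG Me-X04+ against TG Me-X04-, in each library of the 3 groups. Triangles are libraries of set A, circles those of set B, and the bar at the right of each group gives its mean and SD. In all 7 genes the TG Me-X04+ libraries lie above every TG Me-X04- and WT library.

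Complex IV, cytochrome c oxidase, had a positive log2FC in all 13 members, with a median of 0.66 (11 positive with library sizes outside the mitochondrial genome and 7 with all listed reads), and 3 were called. Cox6a2 (ENSMUSG00000030785, chr7:128205435-128206387, minus strand) is the isoform of subunit 6A known from heart and skeletal muscle. It changed more than any other member. In WT it had 0 reads in 2 libraries and 10 to 17 in the other 5, with log2 RPKM from -2.78 through -0.15 to 0.23. TG Me-X04- stood at 1.49, 2.65, 1.17, 2.02 and 1.04, from 29 to 80 reads, and TG Me-X04+ at 3.94, 4.70, 5.91 and 5.43, from 132 to 902 reads. The 3 groups did not overlap, TG Me-X04- lying between WT and TG Me-X04+. The log2FC of TG Me-X04+ against TG Me-X04- was 3.32 (9.99-fold; SE 0.66, 95% interval 1.92 to 4.72, adjusted p = 0.00698), with 2.25 within set A and 4.26 within set B. It was called in each of the 24 alternatives, between 2.71 and 3.85.

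Cox6a2 shares 70 exon bases (10.3% of its own) with Itgad on the opposite strand. Whether counting used the strand is not given in the sources used here, and Itgad was not analysed here. Cox6a1, the ubiquitous isoform, had the highest mean of complex IV. It ran in WT from 3.66 through 5.03 to 5.80, stood at 4.61, 4.66, 6.15, 5.88 and 5.09 in TG Me-X04- and at 4.15, 5.67, 7.93 and 7.51 in TG Me-X04+, and its log2FC of 1.04 (SE 0.66, adjusted p = 0.434) did not pass the test. The sets stood apart, with 0.28 for A and 2.01 for B. The log2 ratio of Cox6a2 to Cox6a1 within a library, both per length, ran from -6.59 to -3.65 in WT, from -4.98 to -2.01 in TG Me-X04- and from -2.08 to -0.22 in TG Me-X04+. Cox6a1 was thus the higher of the pair in all 16 libraries, and the gap was narrowest in TG Me-X04+ 1.

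Cox7b (ENSMUSG00000031231, chrX:106015700-106022450, plus strand), a small subunit of the enzyme, ran in WT from 3.30 through 3.90 to 4.66. It stood at 3.64, 3.95, 4.40, 4.39 and 3.39 in TG Me-X04- and at 4.98, 4.86, 4.79 and 4.95 in TG Me-X04+. TG Me-X04+ lay in a band of SD 0.08 above all others. The log2FC was 0.94 (SE 0.26, adjusted p = 0.0452), with 1.12 and 0.81 within sets A and B. The call sat close to the threshold and was lost in 7 of 9 fits that left out a library of either group, namely TG Me-X04- 1, 2 or 5 or any of TG Me-X04+ 1 to 4. Over the 24 alternatives it was called in 9, with a log2FC of 0.32 to 1.05 and an adjusted p of up to 0.467.

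Cox7a2l (ENSMUSG00000024248, chr17:83501918-83517330, minus strand) makes a factor that joins complexes III and IV into supercomplexes. It ran in WT from 2.98 through 3.49 to 3.97, stood at 4.35, 4.38, 4.48, 4.06 and 3.80 in TG Me-X04- and at 4.74, 5.50, 5.26 and 4.75 in TG Me-X04+. TG Me-X04+ lay above TG Me-X04-, which overlapped WT only through its replicate 5. The log2FC was 0.85 (SE 0.24, adjusted p = 0.0481), with 0.75 and 0.90 within sets A and B. The call was lost in 7 of 9 fits without a library, namely any of TG Me-X04- 1 to 5 or TG Me-X04+ 2 or 3. Over the 24 alternatives it was called in 9, with a log2FC of 0.23 to 0.96 and an adjusted p of up to 0.571. Transcripts of Gm6969 hold 25.3% of its 16-base words.

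Among the rest of complex IV, Cox8a, a small subunit, had a log2FC of 1.23 (SE 0.41, adjusted p = 0.0980), or 0.64 in set A and 1.85 in set B. Its libraries stood at 4.71, 5.23, 5.80, 5.31 and 4.51 in TG Me-X04- and at 5.30, 5.92, 7.20 and 6.92 in TG Me-X04+. Cox5b, a subunit on the matrix side, had the smallest log2FC among complex IV members with a mean of at least 0, 0.15 (95% interval -0.72 to 1.02, adjusted p = 0.889), or -0.33 in set A and 0.47 in set B. It ran in WT from 0.58 through 1.61 to 2.30, stood at 2.07, 3.02, 2.25, 1.83 and 1.04 in TG Me-X04- and at 1.71, 2.71, 2.09 and 2.26 in TG Me-X04+. Its sign turned without TG Me-X04- 5 (-0.10) or TG Me-X04+ 2 (-0.02).

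Complex V makes ATP from the proton gradient. Of its 17 members 15 had a positive log2FC, with a median of 0.58 (7 positive with all listed reads), and 1 was called. The 5 subunits of the F1 head were all positive, with a median of 0.71 and 0 called. The 11 of the membrane part and stalk had a median of 0.58, 10 of them positive and 1 called. That 1 was Atp5mpl (ENSMUSG00000021290, chr12:111961375-111966977, minus strand), a small subunit bound to the membrane part. It ran in WT from 3.42 through 4.15 to 4.98, stood at 3.78, 4.39, 4.80, 4.71 and 3.83 in TG Me-X04- and at 5.87, 6.12, 6.15 and 5.58 in TG Me-X04+. The TG Me-X04+ libraries lay above all others. The log2FC was 1.63 (3.09-fold; SE 0.30, 95% interval 0.99 to 2.27, adjusted p = 0.00435), with 1.91 and 1.42 within sets A and B. It was called in 23 of 24 alternatives, the exception being library sizes of all listed reads (log2FC 1.01, adjusted p = 0.0625).

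Atp5b, the catalytic beta subunit, had the highest mean of complex V. It ran in WT from 4.79 through 5.05 to 5.85, stood at 6.19, 6.55, 4.66, 4.61 and 4.94 in TG Me-X04- and at 7.03, 7.23, 5.41 and 5.77 in TG Me-X04+. Set A lay above set B in each of the 3 groups. The log2FC was 0.97 (SE 0.45, adjusted p = 0.250), and the within-set differences were 0.76 and 0.85. Atp5s, a coupling factor, had the smallest log2FC of complex V, -1.03 (SE 0.45, adjusted p = 0.221), or -1.27 in set A and -0.73 in set B. It ran in WT from 1.25 through 2.84 to 3.65, stood at 2.33, 2.57, 2.71, 2.45 and 3.12 in TG Me-X04- and at 1.00, 1.37, 1.50 and 2.56 in TG Me-X04+. The groups overlapped through TG Me-X04+ 4, and Atp5s was the only member called lower in that comparison under any alternative, with library sizes of all listed reads (log2FC -1.64).

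**Figure D3:**
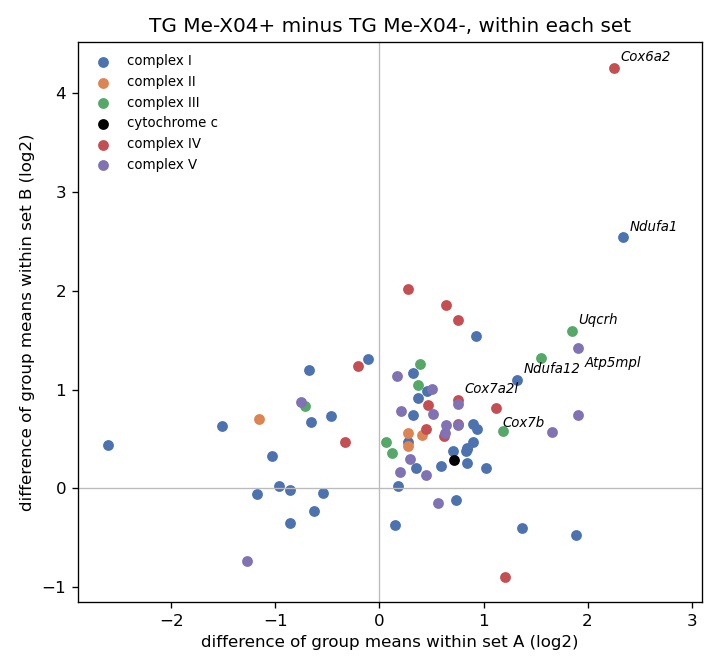
Mean of TG Me-X04+ minus mean of TG Me-X04- (log2 RPKM) within set A (horizontal) and within set B (vertical) for the 80 members other than Uqcrc1, coloured by complex, with the 7 called members named. Points right of and above 0, 55 of 80, were positive in both sets, and 6 were negative in both. Of all 17951 listed genes, 5071 were positive in both sets and 6127 negative in both.

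The split of the libraries touched the members along with other genes. Within WT, set B was the higher for 46 of 81 members and for 10096 of 17951 listed genes. There, where no treatment differed, 23 of 81 members differed by more than 1 on the log2 scale between the sets, a share not counted over all genes. Of these, 6 were higher in set A and 17 higher in set B. The 6 include Uqcrc1, whose jumps in single libraries give its difference. Uqcr11 (-2.09), Uqcrq (-1.93), Atp5d (-1.84), Cox6a1 (-1.58) and Uqcr10 (-1.53) were among those lower in set A, and Atp5s (1.41), Uqcrfs1 (1.25) and Ndufa4 (1.23) among those higher. TG Me-X04+ minus TG Me-X04- was positive in both sets for 55 of the 80 members other than Uqcrc1 and negative in both for 6. Of the 17951 listed genes, 5071 were positive in both sets and 6127 negative in both. These signs are on the deposited scale and depend on the scaling described above. The medians of the 80 members were 0.45 in set A and 0.59 in set B, against -0.10 and -0.02 over all genes. With a term for the set in the fit, 17 members (21.0%) were called, all higher. Of all genes 2142 (11.9%) were called, 61.8% of those higher. The sets were drawn from the spread of these same values. The term therefore lowers the residual spread by construction, and the added calls are no separate evidence. The 17 members were the 7 above with Atp5b, Atp5e, Atp5j, Atp5l, Cox6a1, Cox6b1, Cox8a, Ndufa13, Ndufc2 and Uqcr10.

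Samples of the same number in the TG groups were taken as from the same animal. With the animal as a replicate block (a random block in limma, correlation 0.39) 9 members (11.1%) were called higher, the 7 and Atp5l and Cox8a, where 11.8% of all genes were called. The number as a fixed replicate block also joined WT libraries of the same number, which are other animals. Number 3 thereby joined WT 3 of set A with TG Me-X04- 3 and TG Me-X04+ 3 of set B. That fit is therefore not a test of the TG pairs alone. With that block 4 (4.94%) were called, Cox6a2, Ndufa1, Uqcrh and Atp5mpl, where 4.98% of all genes were called. Both shares are near those of calls in either direction over all genes. Of those calls 53.4% (random block) and 65.3% (fixed block) were higher, while every member call was higher. In the limma fit with the fixed block the adjusted p was 0.0604 for Ndufa12, 0.0607 for Cox7b and 0.0934 for Cox7a2l. Leaving out TG Me-X04- 5 or TG Me-X04+ 2 gave 4 called members (4.94%), where 3.075% and 3.48% of all genes were called. The other fits without a library gave 5 or 6 (6.17% or 7.41%), where 3.92% to 5.69% of all genes were called.

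**Figure D4:**
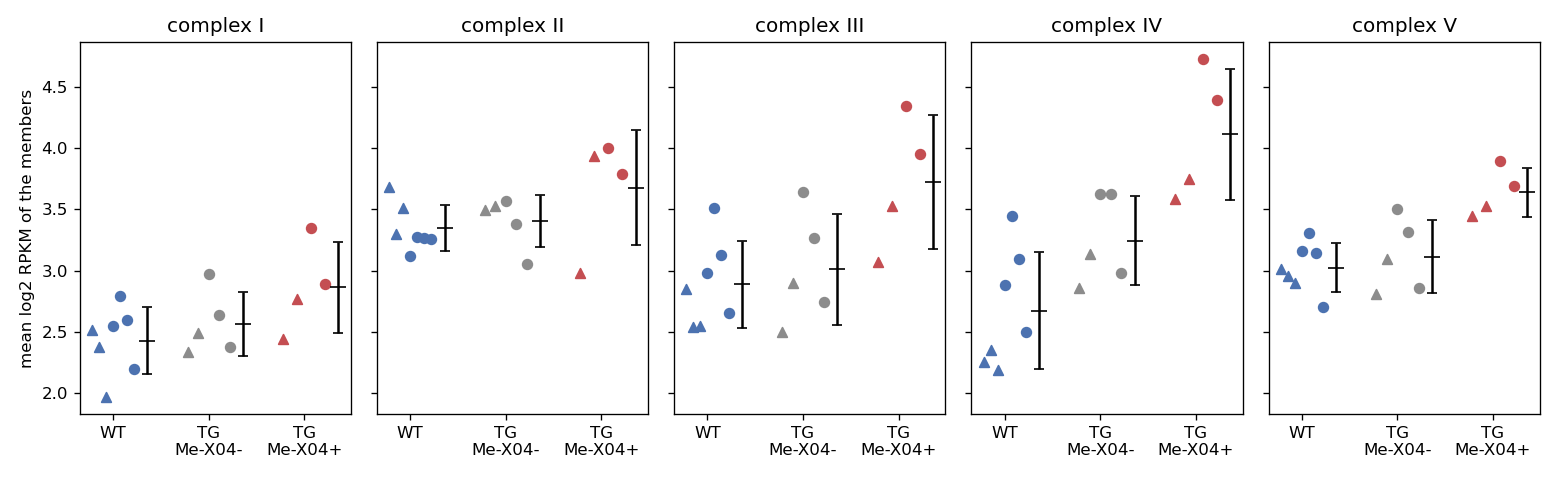
Mean log2 RPKM over the members of each complex, without Uqcrc1, in each library of the 3 groups. Triangles are set A, circles set B, and the bars give each group's mean and SD. In complexes III and IV set A lies below set B within each group except for single libraries, and the TG Me-X04+ mean of complex IV (4.12) lies above those of TG Me-X04- (3.24) and WT (2.67).

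The comparison of TG Me-X04- with WT asks how microglia without dye in transgenic brains differ from WT microglia. None of the 81 members was called, where 0.201% of all genes were. By limma 2 members (2.47%) had an unadjusted p under 0.05, Cox6a2 and Cox7a2l, against 5.18% of all genes. With array weights 1 member was called, and with a term for the set 1, Cox6a2 in both cases (log2FC 1.69 and 2.46), where 175 and 101 of the 17951 genes were called. The median log2FC of the members was 0.12, that of all genes 0.01, and 63 of 81 were positive. The log2FC of Cox6a2 was 2.49 (SE 0.58, 95% interval 1.27 to 3.71, adjusted p = 0.143), with 3.85 within set A, where 2 of the 3 WT libraries had 0 reads, and 1.50 within set B. Its groups did not overlap, as for 1 member (1.23%) against 0.652% of all genes higher. For Cox7a2l it was 0.74 (SE 0.21, 95% interval 0.29 to 1.18, adjusted p = 0.352). The other 5 genes called in TG Me-X04+ against TG Me-X04- had differences here of -0.04 to 0.13, for example 0.02 for Ndufa1 (95% interval -0.77 to 0.81), -0.04 for Uqcrh (-0.58 to 0.50) and 0.08 for Atp5mpl (-0.48 to 0.64). Those called in TG Me-X04+ against WT alone had 0.71 for Cox8a (-0.04 to 1.47), 0.60 for Atp5g1 (-0.10 to 1.30), 0.50 for Ndufc1 (-0.11 to 1.10) and 0.13 for Cox7c (-0.32 to 0.57), each with an adjusted p of 0.999. All 13 complex IV members were positive, with a median of 0.40 and 10 of 13 positive within both sets.

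In TG Me-X04+ against WT, 11 members were called higher and 0 lower. Over all genes 14.3% were called, 8.25% higher and 6.02% lower, so the 13.6% of members called is close to the share of all calls and above that of higher calls. The 11 were the 7 above with Cox8a, Ndufc1, Atp5g1 and Cox7c. The members whose libraries did not overlap numbered 10 (12.3%, background 6.56%). Since this comparison shares its TG Me-X04+ libraries with the first and its WT libraries with the second, its values are given beside theirs and not as a further test. Cox6a2 had a log2FC of 5.81 (SE 0.62, adjusted p = 8.7e-06), with 6.10 and 5.76 within sets A and B; with 0 reads in 2 WT libraries its size depends on the small prior in the deposited values. Ndufa1 had 2.56 (adjusted p = 0.000283), Cox8a 1.94 (adjusted p = 0.00206), Atp5mpl 1.70 (adjusted p = 0.000483), Uqcrh 1.66 (adjusted p = 0.000443) and Cox7a2l 1.59 (adjusted p = 0.000128).

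Ndufc1, a small accessory subunit of complex I, had a log2FC against WT of 1.19 (adjusted p = 0.0139), Cox7c of complex IV 0.79 (adjusted p = 0.0241) and Atp5g1, a gene for the proton-carrying c ring of complex V, 1.10 (adjusted p = 0.0458). The call of Ndufc1 was lost without TG Me-X04+ 4 (adjusted p = 0.0579), that of Cox7c without WT 7 or TG Me-X04+ 3, with an adjusted p of up to 0.0889. That of Atp5g1 was lost in 9 of 11 fits without a library (all but WT 4 and 5), with an adjusted p of up to 0.107. Over the 25 alternatives of this comparison Ndufc1 was called in 22, Cox7c in 18 and Atp5g1 in 10. The median log2FC of the members was 0.68, that of all genes -0.11, and 69 of 81 were positive. With the number as a replicate block 17 (21.0%, all genes 14.1%) were called, 16 higher and 1 lower (Atp5s), although WT numbers name other animals. With all listed reads as library size the median was 0.06 against -0.69 for all genes.

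Other genes of the pathway were counted from fixed lists. The 13 subunits of the mitochondrial genome all had positive log2FC in TG Me-X04+ against TG Me-X04-, from 0.97 to 1.89 with a median of 1.44, and 1 passed, ND3 (1.04, adjusted p = 0.0492). All 13 were positive within both sets and under the 4 other scalings, where the median ran from 0.34 (quantile normalization) to 1.47 and 0 passed. Their mean log2 RPKM was 8.02 ± 1.27 (SD, n = 7) above that of the nuclear members in WT, 8.06 ± 1.41 (n = 5) in TG Me-X04- and 8.98 ± 1.54 (n = 4) in TG Me-X04+, and most of that spread lay between the sets, the means being 9.31, 9.59 and 10.30 in set A and 7.04, 7.04 and 7.66 in set B. In the 4 same-numbered TG pairs this gap was larger in TG Me-X04+ by 0.94, 0.49, 0.78 and 0.77. Against WT 2 of 13 passed, ND3 (1.45, adjusted p = 0.00157) and COX3 (1.41, adjusted p = 0.0024).

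Assembly factors build the complexes but are no part of them. In TG Me-X04+ against TG Me-X04-, 0 of 16 factors of complex I passed and 3 were positive, with a median of -0.30, from Ndufaf2 (-1.47) and Foxred1 (-0.96) to Dmac1 (0.17) and Ndufaf5 (0.61). For complex II 0 of 4 passed, with a median of -0.14 (0.05 after quantile normalization) and Sdhaf1 at -2.48 (adjusted p = 0.0518). For complex III 0 of 6 passed, with a median of -0.55, and for complex V 0 of 3, with a median of -0.47. For complex IV 1 of 21 passed, Coa5 (0.76, adjusted p = 0.0278), with a median of -0.05 and 8 positive. The call of Coa5 was lost after quantile normalization (0.51, adjusted p = 0.133), with library sizes outside the mitochondrial genome (0.48, adjusted p = 0.155) and with all listed reads (0.13, adjusted p = 0.707). No difference between these lists and the members was tested.

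Of 5 measured subunits and inhibitors outside the rule, 1 passed, Atpif1, the inhibitor of the ATPase activity of complex V, at 1.17 (adjusted p = 0.0133) against TG Me-X04- and 1.11 (adjusted p = 0.00432) against WT, both lost with all listed reads (0.55 and 0.47). Usmg5, a small subunit of complex V, had 1.28 (adjusted p = 0.0938), while Ndufab1, the acyl carrier protein of complex I, had -0.50 (adjusted p = 0.406). Of 16 genes of the TCA cycle 0 passed, 13 were positive and the median was 0.26 (-0.01 with library sizes outside the mitochondrial genome and -0.36 with all listed reads), with citrate synthase Cs at 0.75 (adjusted p = 0.0946) and Suclg2 at 0.65 (adjusted p = 0.0966). Against WT both passed, Cs at 0.85 (adjusted p = 0.0202) and Suclg2 at 0.91 (adjusted p = 0.00531), but Cs no longer passed after quantile normalization (0.60, adjusted p = 0.0805) or, by its fold, with library sizes outside the mitochondrial genome (0.69), and neither did with all listed reads (0.21 and 0.27). All 6 carriers of ATP, phosphate and metabolites were positive, with a median of 0.44 (-0.18 with all listed reads, where 2 were positive), and 0 passed, Slc25a4 having 1.17 (adjusted p = 0.301). Of 14 measured regulators of mitochondrial gene expression 0 passed and 2 were positive, with a median of -0.19, from Ppargc1b (-0.90) and Tfam (-0.63) to Nfe2l2 (0.61).

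Uqcrc1 (ENSMUSG00000025651, chr9:108936633-108949623, plus strand), a core protein of complex III, had 57519 to 415940 reads in 6 libraries and 332 to 577 in the other 10. The high libraries were WT 1 (209802 reads), WT 2 (134977), WT 4 (415940), TG Me-X04- 1 (57519), TG Me-X04- 2 (115027) and TG Me-X04+ 1 (144667), which is 3, 2 and 1 of the groups and 5 of set A and 1 of set B. On the log2 RPKM scale these stood at 9.72 to 12.10 and the others at 1.82 to 3.23. Uqcrc1 took 0.321% to 2.21% of the reads of the former and up to 0.00361% of the latter. No group was free of either state, and the log2FC of -0.95 in TG Me-X04+ against TG Me-X04- had an interval of -6.72 to 4.82, so no difference was detectable.

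It was the only listed gene with a share of reads over 10 times higher in each of the 6 libraries than in any of the other 10. The listed genes within 100000 bases on chromosome 9 did not follow it. Pfkfb4 had 63 to 467 reads in the 6 libraries and 8 to 665 in the others, Slc26a6 6 to 128 and 7 to 140, and Col7a1 0 to 14 and 0 to 26. Within the 10 other libraries Uqcrc1 had 450, 453, 362 and 577 reads in WT, 564, 553 and 484 in TG Me-X04- and 442, 332 and 361 in TG Me-X04+.

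**Figure D5:**
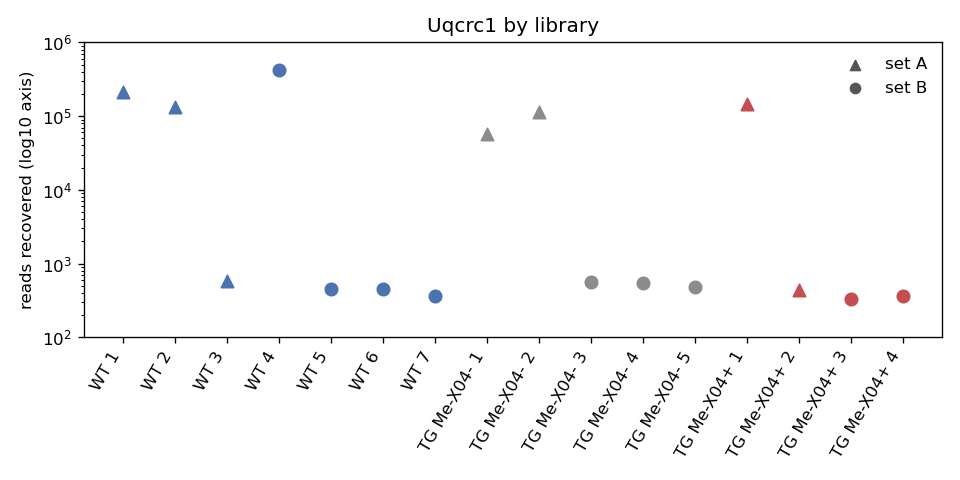
Reads of Uqcrc1 in each library on a log10 axis, coloured by group, with triangles for set A and circles for set B. The 6 high libraries hold 57519 to 415940 reads and the other 10 hold 332 to 577, with both kinds in every group.

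Many of these genes have processed copies elsewhere in the genome, to which reads can align as well. In 27 of the 80 members with annotated transcripts, at least 1 other gene's transcripts held 20% or more of the 16-base words, read on either strand. Of the called members these were Ndufa12 and Cox7a2l, along with Cox7c against WT. Not all 27 concern copies elsewhere, since the closest gene of Ndufa13 (Tssk6) and of Ndufb6 (Smim27) overlaps their exons on the opposite strand. A word is also shorter than a read, so shared words do not show that reads align to both genes. How reads that do were counted is not given in the sources used here, and their part in the levels of these 27 was not tested. Exons of 28 members overlap another annotated gene, on the opposite strand for 25.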

How the data were processed

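RNA was measured in 16 libraries of sorted mouse microglia (7 WT, 5 TG Me-X04-, 4 TG Me-X04+), amplified with the Ovation RNA-Seq System V2 and grouped by the labels. The authors deposited log2 RPKM values per gene; per the labels they were made with Trim Galore 0.4.4, STAR 2.5.4b and featureCounts on GRCm38 and scaled in edgeR 3.24.3 (TMM). The table also holds the authors' fold changes and p-values, which were not used. Low values step in whole reads, and 100% of values gave whole reads (tolerance 0.01), which gave the depth per library. The members and gene lists were chosen with earlier results of these data known. limma 3.58.1 in R 4.3.3 was fitted to the deposited log2 values of all 17951 genes and all libraries, with a variance trend, no covariate and no further filter or pseudocount; the deposited values hold a prior of 2 reads at the mean library size. A fold change is therefore on that scale and understates changes of low genes. P-values were adjusted by Benjamini-Hochberg over all genes. They rest on the spread between libraries within the groups, with no term for the set or for the animal. The script was tested on simulated data.

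Values in every library were given for Uqcrc1, for the member of each complex with the highest mean and those with the largest and smallest log2FC of TG Me-X04+ against TG Me-X04- among members with a mean of at least 0, and for up to 6 called members; Cox7a2l, the seventh call, was added after its values were seen, as were Uqcr10, Cox8a and the genes called only against WT. The numbers of TG libraries were taken to pair by animal, and the titles give only a number. Deviations from the group means correlated at 0.29 to 0.33 for same-numbered TG pairs, and at 0.22 to 0.33 for other pairs within a set. These ranges overlap and do not show the pairing. Alternatives were other scalings, pseudocounts, filters, weights, the limma voom fit on recovered reads, a set term, replicate blocks and leaving out each library. Promoters came from RefSeq (GRCm38.p6) and overlaps and transcripts from GENCODE M21 on GRCm38.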

Additional observations from a re-analysis of the deposited data

Results flagged for a closer look

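Of 57 groups of values screened (19 genes in 3 groups each), 3 held a library farther from the rest than Dixon's 95% limit allows. Chance alone passes that limit in about 1 in 20 groups, but the count is not set against it, because Uqcrc1 was set apart for such jumps and Ndufs6 was named for a log2FC that rests on the library concerned. Cyc1 in WT 3 had a log2 RPKM of 1.76, the nearest other WT library being at 3.30. Ndufs6 in TG Me-X04+ 1 had -1.88, the nearest other being at 2.80. Uqcrc1 in TG Me-X04+ 1 had 11.37, the nearest other TG Me-X04+ library being at 2.84, which restates the reason it was set apart. The libraries concerned all belong to set A.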

How the results depend on the processing

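In brackets after each count are the shares of members, then of all genes, called in the same fit. The count of members called in TG Me-X04+ against TG Me-X04- was 7 as reported (8.64%, 5.49%). It was 4 with library sizes outside the mitochondrial genome (4.94%, 5.50%) and 4 with only the 2 groups compared (4.94%, 2.62%). With the number as a fixed replicate block it was 4 (4.94%, 4.98%), and with a term for the 2 sets 17 (21.0%, 11.9%). Library sizes of all listed reads gave 3 (3.70%, 10.45%). Fits without a library gave 4 to 6 (4.94% to 7.41%, 3.075% to 5.69%). In TG Me-X04- against WT it was 0, with 1 under array weights and 1 with the set term, and 0 without any 1 library. In TG Me-X04+ against WT the count was 11 (13.6%, 14.3%), with 17 after median centring (21.0%, 14.5%). The set term gave 28 (34.6%, 21.8%), the number as a replicate block 17 (21.0%, 14.1%) and all listed reads 7 (8.64%, 26.4%). Fits without a library gave 9 to 16 (11.1% to 19.75%, 11.8% to 14.5%). The animal as a replicate block, run for the first comparison, gave 9 (11.1%, 11.8%), and no other fit moved a count by over 1.5 times. With all listed reads 29 of 81 members were positive in TG Me-X04+ against TG Me-X04-, where 65 were as reported. Of the members named with their libraries, those below turned sign, none of which passed the test. Cox5b went to -0.12 with sizes outside the mitochondrial genome and to -0.46 with all listed reads, and ran without a library from -0.10 to 0.40. Cyc1 went to 0.44 under array weights, 0.027 after median centring, 0.024 on log2(RPKM + 1), 0.10 with the set term, 0.070 with the fixed replicate block, 0.13 under limma voom, and ran without a library from -0.40 to 0.46. With all listed reads Cycs went to -0.041, Sdha to -0.18 and Sdhc to -0.11. Sdhd went to 0.27 under array weights and ran without a library from -0.71 to 0.37 (without TG Me-X04+ 1). Without a library Ndufs6 ran from -1.63 to 0.23 (without TG Me-X04+ 1) and Uqcrc1 from -3.24 to 0.31 (without TG Me-X04- 2). The cause was not tested. Members with few reads, such as Cox6a2 in WT (0 to 17), have their fold limited by depth.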
